A study of Mus musculus with 10 samples.

Results

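The enzymes of the TCA cycle were followed in liver RNA of 5 mice given a Phf2 adenovirus and 5 mice given a GFP adenovirus. The 9 enzymes and subunits were Cs, Idh2, Idh3a, Idh3b, Ogdh, Suclg1, Suclg2, Fh1 and Mdh2, chosen by name as members of the cycle, and all 9 were among the 19938 genes tested on the arrays. All animals were male C57BL/6J mice injected at 8 weeks of age through the tail vein and studied in the fed state 3 weeks later. The Phf2 mice received virus to overexpress Phf2, a histone demethylase of the H3K9me2 mark, in the liver, and the GFP mice, the controls, carried the same type of vector with a fluorescent protein. The control group therefore also received virus, and the methods state that mice without detectable overexpression were removed from the cohort. Each liver was read on 1 Affymetrix Gene ST array, and all values are log2 values after RMA, the procedure that corrects background, equalizes the arrays and summarizes the probes of a feature.

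The TCA cycle is the mitochondrial pathway in which acetyl-CoA from glucose, fatty acids and amino acids is oxidized to carbon dioxide, with the electrons passed to the respiratory chain. In liver it also supplies carbon to other pathways, since citrate leaves the mitochondria for fatty acid synthesis and malate for glucose synthesis. Citrate synthase opens the cycle, isocitrate and 2-oxoglutarate dehydrogenases carry out its decarboxylations, succinyl-CoA synthetase makes GTP or ATP, and fumarase and malate dehydrogenase close it.

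The arrays had medians between 5.06 and 5.18, and any 2 arrays correlated at 0.9783 to 0.9932 over all features. The feature for Phf2 itself ran from 6.27 to 6.58 in Phf2 mice and from 6.32 to 6.54 in GFP mice (log2 fold change -0.05 ± 0.08 SE, limma adjusted p = 0.751). The sources do not say whether its probes match the viral transcript, and the labels of the groups are therefore not tested by it. The tissue label was borne out by 10 hepatocyte markers, whose mean lay between 11.98 and 12.16 in Phf2 mice and between 12.15 and 12.27 in GFP mice, with 3 of the 10 lower in Phf2 mice by limma (Apoa1, Fgb and Cps1, named after their values were seen). Markers of T and NK cells were higher in Phf2 mice for 5 of 7 genes, with a list mean of 5.34 to 6.07 in Phf2 mice and 4.78 to 5.13 in GFP mice. Of 7 Kupffer cell and macrophage markers 3 were lower in Phf2 mice (Timd4, Clec4f and Marco, at -1.59, -0.54 and -0.37 on the log2 scale, named after their values were seen), while the 4 not called had positive values of 0.15 to 0.41. The mean of this list was 7.15 to 7.57 in Phf2 mice and 7.30 to 8.05 in GFP mice, and its median log2 fold change was 0.15. In bulk liver, fewer cells of a type and less RNA per cell cannot be told apart, and the part of these cell type differences in the results below was not tested. Pancreatic acinar markers varied widely within both groups, from 5.88 to 10.73 in Phf2 mice (highest in replicate 2) and from 6.17 to 12.29 in GFP mice (highest in replicate 1), and 0 of 6 differed between the groups by limma (0 of 6 also by the methods' t-test, at an adjusted or an unadjusted p of 0.05).

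Of the 9 TCA cycle genes, Cs and Suclg2 rose in Phf2 mice, Fh1 fell, and 6 did not pass an adjusted p of 0.05 from limma. This was 3 of 9 genes called, 2 of them higher, against 9.67% of all genes tested in either direction, 5.43% called higher and 4.24% called lower. The 9 genes were strongly expressed, at percentiles 82.12 to 98.54 of mean level, whereas these shares include dim genes. With only the 11194 genes above the median feature mean of 5.12 fitted, 1095 were called higher and 928 lower. The same 3 of the 9 genes were called in that fit. An unadjusted p under 0.05 was reached by 5 of 9, against 22.2% of all genes, dim genes included. With 9 genes, 1 call more or less moves this share widely. The call of Fh1 was lost without single arrays named below. That of Suclg2 held without any single array (limma, adjusted p = 0.0152 to 0.0491) but was lost without 2 arrays together, also named below. The 2 rises were below the 1.5-fold used in the study, as was the fall, and 0 of 9 genes passed 1.5-fold with an unadjusted p of 0.05, a pair of thresholds that 3.54% of all genes passed. The median log2 fold change of the 9 genes was 0.05, against -0.01 over all genes, and leaving out single arrays moved it between 0.02 (without GFP replicate 3) and 0.10 (without GFP replicate 2). Of the 9 genes 4 had groups that did not overlap (Cs, Suclg1, Suclg2 and Mdh2), compared to 9.08% of all genes tested. That share also includes dim genes, and it was not computed for strongly expressed genes alone.

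**Figure D1:**
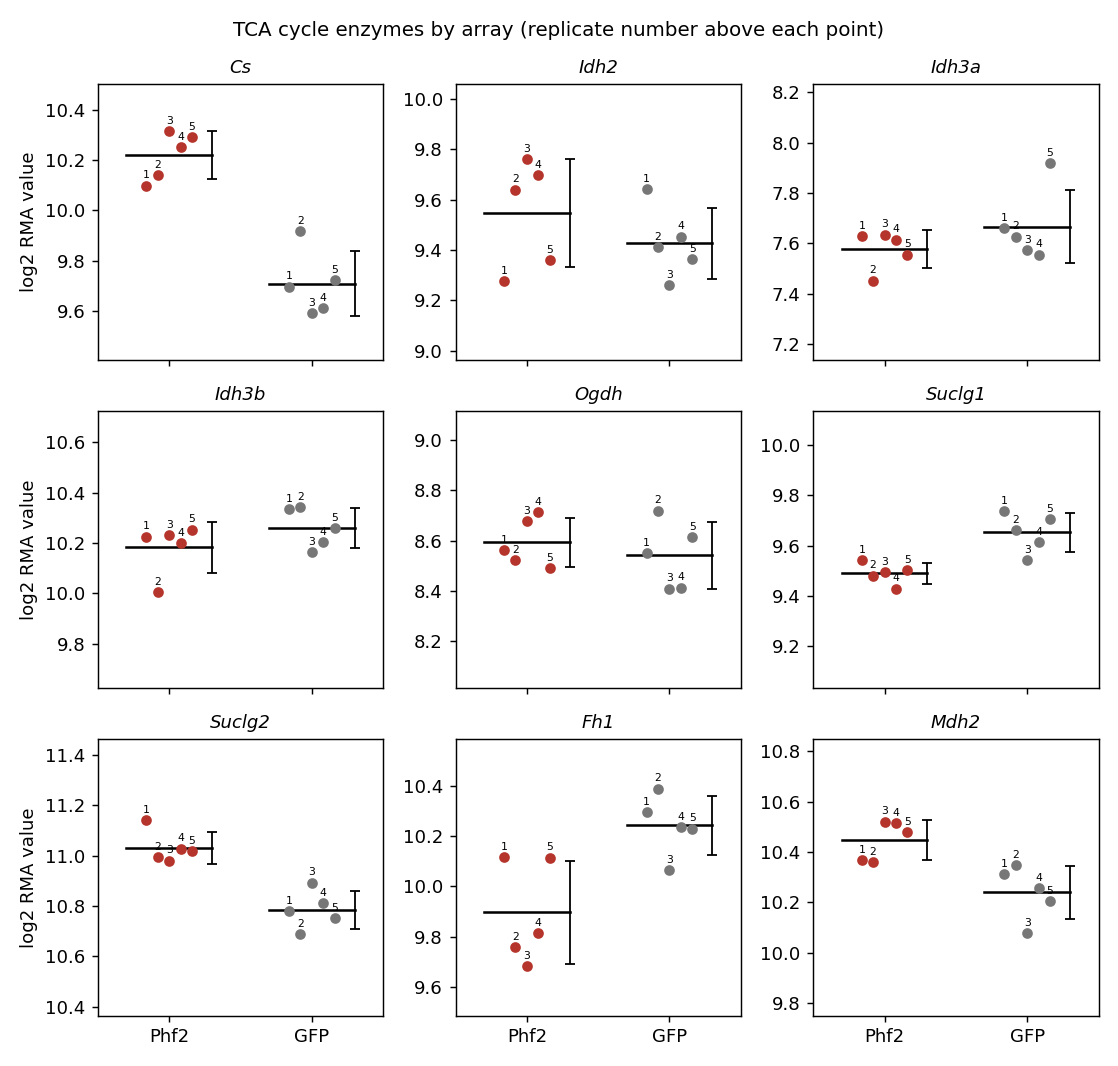
Log2 RMA value (vertical axis, each panel spanning the same range) of the 9 TCA cycle genes in the 5 Phf2 arrays (red) and the 5 GFP arrays (grey), with replicate numbers above the points, means as long lines and the SD as bars. Cs and Suclg2 lie higher in every Phf2 array than in any GFP array, while the Fh1 values of Phf2 replicates 1 and 5, both 10.11, reach into the GFP range.

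Cs encodes citrate synthase, which condenses acetyl-CoA with oxaloacetate. It read 10.10, 10.14, 10.32, 10.25 and 10.29 in Phf2 replicates 1 to 5, against 9.70, 9.92, 9.59, 9.61 and 9.72 in GFP replicates 1 to 5. All 5 Phf2 arrays lay above all 5 GFP arrays, and the closest values were those of Phf2 replicate 1 and GFP replicate 2. The means were 10.22 ± 0.10 (SD, n = 5) in Phf2 mice and 9.71 ± 0.13 (SD, n = 5) in GFP mice. The log2 fold change was therefore 0.51 ± 0.08 SE, or 1.43-fold, with an adjusted p of 0.00107 from limma and a two-sided exact permutation p of 0.00794, the smallest that 5 against 5 arrays allow. The call held under all 21 alternatives run for this gene, with log2 fold changes between 0.48 and 0.56. The 1.5-fold threshold, which Cs did not reach, is not among these 21. With the pancreatic markers as a covariate the value was 0.51 (limma, adjusted p = 0.00151).

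Succinyl-CoA synthetase, which converts succinyl-CoA to succinate, is built from a common alpha subunit, Suclg1, and a beta subunit that sets the nucleotide, Suclg2 for GTP and Sucla2 for ATP. The subunits did not move alike. Suclg2 read 11.14, 10.99, 10.98, 11.03 and 11.02 in Phf2 replicates 1 to 5, against 10.78, 10.69, 10.89, 10.81 and 10.75 in GFP replicates 1 to 5. The groups did not overlap, with Phf2 replicate 1 the highest array and GFP replicate 2 the lowest. This gave a log2 fold change of 0.25 ± 0.06 SE (limma, adjusted p = 0.0205), or 1.19-fold. Without Phf2 replicate 2 and GFP replicate 1, the arrays highest in pancreatic markers, the change was 0.26 but the adjusted p was 0.0856. With the pancreatic markers as a covariate, the change was 0.25 (limma, adjusted p = 0.023). A second feature of Suclg2 gave 10.69 ± 0.05 (SD, n = 5) in Phf2 mice and 10.40 ± 0.05 (SD, n = 5) in GFP mice, a log2 fold change of 0.29 (adjusted p = 0.00931 from limma over all features). Both features of this gene were therefore higher in Phf2 mice, although the sources do not say which parts of the transcript they read. The first feature was used for the values above and for the comparisons of subunits below. Its number lies far from those of the second feature and of Suclg1, a gene of the same chromosome. Which locus the first feature reads was not tested.

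Suclg1, the alpha subunit, read 9.54, 9.48, 9.50, 9.43 and 9.50 in Phf2 replicates 1 to 5, against 9.74, 9.66, 9.54, 9.62 and 9.71 in GFP replicates 1 to 5. Every Phf2 array lay below every GFP array, but Phf2 replicate 1 and GFP replicate 3 were separated only beyond the second decimal. The log2 fold change of -0.16 ± 0.06 SE had an adjusted p of 0.104 from limma and did not pass, while the exact permutation p was 0.00794. By the methods' t-test the adjusted p was 0.0494. Sucla2, the ATP-specific beta subunit, had a log2 fold change of -0.09 ± 0.07 SE (limma, adjusted p = 0.491).

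The difference between subunits was tested directly, within each array, as 1 of 7 comparisons of related enzymes. The log2 fold change of Suclg1 minus that of Suclg2 was -0.41 ± 0.07 (SE, n = 5 per group), with an exact permutation p of 0.00794 and an adjusted p of 0.0278 over the 7 comparisons. Set on the GFP mean, the within-array difference lay between -0.466 and -0.352 in Phf2 mice and between -0.219 and 0.105 in GFP mice, without overlap. For the beta subunits, the log2 fold change of Suclg2 minus that of Sucla2 was 0.34 ± 0.06 SE, with the same exact p and adjusted p. The GTP-specific beta subunit was thus higher relative to the alpha subunit, and to the alternative beta subunit, on every Phf2 array than on any GFP array. Leaving out a Phf2 array raised the adjusted p of these comparisons to 0.0556 for each of replicates 2, 3, 4 and 5 (Suclg1 minus Suclg2 -0.42, -0.42, -0.40 and -0.42, Suclg2 minus Sucla2 0.33, 0.33, 0.32 and 0.37).

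Fh1, the fumarase that hydrates fumarate to malate, read 10.11, 9.76, 9.68, 9.81 and 10.11 in Phf2 replicates 1 to 5, against 10.29, 10.39, 10.06, 10.23 and 10.23 in GFP replicates 1 to 5. Phf2 replicates 2, 3 and 4 lay below all GFP arrays, whereas Phf2 replicates 1 and 5 lay above GFP replicate 3, so the groups overlapped. The means were 9.90 ± 0.20 (SD, n = 5) in Phf2 mice and 10.24 ± 0.12 (SD, n = 5) in GFP mice, a log2 fold change of -0.35 ± 0.10 SE (limma, adjusted p = 0.0440). The exact permutation p was 0.0238. This call was lost without Phf2 replicate 2 (adjusted p = 0.114), 3 (0.105) or 4 (0.109) and without GFP replicate 1 (0.0944), 2 (0.102), 4 (0.0800) or 5 (0.0751), while the log2 fold change stayed between -0.40 and -0.29. Without the array of each group highest in pancreatic markers it was -0.30 (adjusted p = 0.205). With the pancreatic markers as a covariate it was -0.35 (limma, adjusted p = 0.0381).

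Mdh2, the mitochondrial malate dehydrogenase that regenerates oxaloacetate, read 10.37, 10.36, 10.52, 10.52 and 10.48 in Phf2 replicates 1 to 5, against 10.31, 10.35, 10.08, 10.26 and 10.21 in GFP replicates 1 to 5. The groups did not overlap, but Phf2 replicate 2 and GFP replicate 2 lay close together. The log2 fold change of 0.21 ± 0.07 SE had an adjusted p of 0.0768 from limma, above the threshold, and an exact permutation p of 0.00794. It passed with an intensity trend and a robust prior (adjusted p = 0.0442). Its cytosolic counterpart Mdh1 had a log2 fold change of -0.13 ± 0.07 SE (adjusted p = 0.297). The difference of these log2 fold changes, Mdh2 minus Mdh1, was 0.34 ± 0.10 SE, with an exact permutation p of 0.0159 and an adjusted p of 0.0370 over the 7 comparisons, although the within-array differences overlapped between the groups (0.149 to 0.557 in Phf2 mice, -0.170 to 0.186 in GFP mice). The adjusted p ran from 0.0370 to 0.0741 when single arrays were left out, and passed 0.05 upwards without Phf2 replicate 2, 3, 4 or 5 or GFP replicate 1, 3, 4 or 5.

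**Figure D2:**
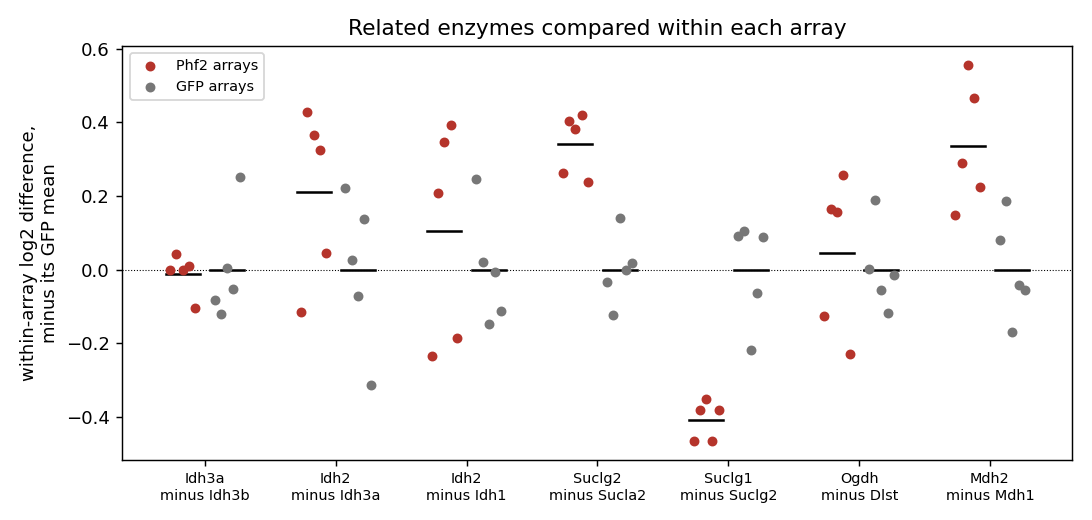
Within-array log2 difference of 7 pairs of related enzymes (vertical axis), set on the mean of the GFP arrays, with Phf2 arrays in red, GFP arrays in grey and means as black lines. Suclg2 minus Sucla2 is higher and Suclg1 minus Suclg2 lower in all 5 Phf2 arrays than in any GFP array, while Idh3a minus Idh3b differs by -0.01 between the group means.

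The isocitrate dehydrogenases and 2-oxoglutarate dehydrogenase gave no call among the 9 genes. Idh2, the NADP-dependent mitochondrial isocitrate dehydrogenase, read 9.28, 9.64, 9.76, 9.70 and 9.36 in Phf2 replicates 1 to 5, against 9.64, 9.41, 9.26, 9.45 and 9.36 in GFP replicates 1 to 5. Its Phf2 arrays were split, with replicates 2, 3 and 4 higher than replicates 1 and 5. The log2 fold change was 0.12 with a 95% interval of -0.11 to 0.35 (adjusted p = 0.576 from limma). Phf2 replicates 1 and 5 were also the pair that stood apart for Fh1, and on the first principal component of all genes (41.2% of the variance) they lay at -6.38 and -4.26, nearer to the GFP arrays (14.07 to 22.45) than the other Phf2 arrays (-34.28 to -19.90). The same 2 arrays were the Phf2 arrays lowest in pancreatic acinar markers (5.88 and 6.10, against 8.92 to 10.73 in Phf2 replicates 2 to 4), lowest in T and NK cell markers (5.40 and 5.34, against 5.49 to 6.07) and highest in hepatocyte markers (12.11 and 12.16, against 11.98 to 12.06). With the pancreatic markers as a covariate Idh2 was 0.12 ± 0.07 SE (limma, adjusted p = 0.380), against an SE of 0.10 without it, and the part of the other markers was not tested.

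Idh3a and Idh3b encode the catalytic alpha and the beta subunit of the NAD-dependent isocitrate dehydrogenase. Idh3a read 7.63, 7.45, 7.63, 7.61 and 7.56 in Phf2 replicates 1 to 5, against 7.66, 7.63, 7.57, 7.55 and 7.92 in GFP replicates 1 to 5. Only GFP replicate 5 stood clearly above the rest, and the log2 fold change was -0.09 (95% interval -0.26 to 0.08, adjusted p = 0.570 from limma). Without that array it was -0.03 (adjusted p = 0.849). Idh3b read 10.23, 10.005, 10.23, 10.20 and 10.25 in Phf2 replicates 1 to 5, against 10.34, 10.34, 10.16, 10.20 and 10.26 in GFP replicates 1 to 5. Its groups overlapped widely, with Phf2 replicate 2 the lowest array, and its log2 fold change was -0.08 (95% interval -0.22 to 0.07, adjusted p = 0.568). The difference between these log2 fold changes was -0.01 (95% interval -0.17 to 0.15, exact permutation p = 0.929, adjusted p = 0.929 over the 7 comparisons). The remaining subunit, gamma, encoded by Idh3g, is not among the 9 genes but did rise. It read 9.95, 10.01, 10.004, 10.12 and 9.98 in Phf2 replicates 1 to 5, against 9.68, 9.90, 9.65, 9.79 and 9.74 in GFP replicates 1 to 5. These groups did not overlap, and the log2 fold change was 0.26 ± 0.06 SE (limma, adjusted p = 0.0226), a call lost without Phf2 replicate 2 (adjusted p = 0.0536) or 4 (0.0659) or GFP replicate 1 (0.0593), with the replicate block (0.0548) and without the array of each group highest in pancreatic markers (0.121).

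Neither mitochondrial isoform of isocitrate dehydrogenase was shown to differ in its response from the other. The log2 fold change of Idh2 minus that of Idh3a was 0.21 (95% interval -0.11 to 0.53, exact permutation p = 0.167, adjusted p = 0.292 over the 7 comparisons), and Idh2 minus its cytosolic counterpart Idh1 gave 0.11 (95% interval -0.24 to 0.45, exact permutation p = 0.484, adjusted p = 0.678). Ogdh, the E1 component of 2-oxoglutarate dehydrogenase, read 8.56, 8.52, 8.68, 8.71 and 8.49 in Phf2 replicates 1 to 5, against 8.55, 8.72, 8.41, 8.41 and 8.62 in GFP replicates 1 to 5. The groups overlapped over most of their range, and the log2 fold change was 0.05 (95% interval -0.11 to 0.22, adjusted p = 0.760 from limma). Against Dlst, the E2 component of the same complex, Ogdh differed by 0.04 (95% interval -0.20 to 0.29, exact permutation p = 0.690, adjusted p = 0.806).

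The promoters of the 3 called genes Cs, Suclg2 and Fh1, and of Suclg1, the partner subunit of Suclg2, are shown because the results turn on these genes. Each run holds the 250 bases before the start site, 5′ to 3′ on the strand of the gene, from RefSeq on build GRCm38.p6, and capitals mark the CCAAT box, a common promoter element, on either strand (written ATTGG on the other strand).
Cs promoter, chr10:128337477-128337726, plus strand: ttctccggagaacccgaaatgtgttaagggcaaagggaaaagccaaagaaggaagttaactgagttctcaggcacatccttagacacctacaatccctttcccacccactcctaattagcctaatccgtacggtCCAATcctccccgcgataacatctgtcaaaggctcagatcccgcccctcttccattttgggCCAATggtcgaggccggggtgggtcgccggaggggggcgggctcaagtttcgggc
Suclg2 promoter, chr6:95718847-95719096, minus strand: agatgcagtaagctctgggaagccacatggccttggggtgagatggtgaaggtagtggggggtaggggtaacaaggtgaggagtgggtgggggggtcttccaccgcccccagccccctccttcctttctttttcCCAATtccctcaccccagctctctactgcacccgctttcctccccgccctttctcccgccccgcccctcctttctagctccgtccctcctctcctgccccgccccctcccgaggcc
Fh1 promoter, chr1:175625636-175625885, minus strand: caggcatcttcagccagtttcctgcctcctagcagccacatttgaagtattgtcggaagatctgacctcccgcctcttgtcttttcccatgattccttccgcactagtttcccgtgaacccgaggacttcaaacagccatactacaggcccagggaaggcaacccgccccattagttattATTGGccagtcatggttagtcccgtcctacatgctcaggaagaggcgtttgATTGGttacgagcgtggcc
Suclg1 promoter, chr6:73248255-73248504, plus strand: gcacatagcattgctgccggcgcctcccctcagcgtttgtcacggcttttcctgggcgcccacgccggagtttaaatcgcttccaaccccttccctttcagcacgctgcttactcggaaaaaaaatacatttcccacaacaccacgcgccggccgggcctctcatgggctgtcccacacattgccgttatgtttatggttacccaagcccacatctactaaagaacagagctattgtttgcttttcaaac
Cs and Fh1 held 2 CCAAT boxes each, with first bases 116 and 55 bases upstream of the start site in Cs and 70 and 19 in Fh1. Suclg2 held 1, with its first base 116 bases upstream, and Suclg1 held 0. A promoter window was found for 8 of the 9 genes. A CCAAT box was in at least 1 window of 6 of these 8 (in 4 of the 6 alternative windows of Ogdh, and in the only window of the other 5), against 33.85% of all windows of this length, and was seen in genes called higher, called lower and not called. The E-box CACGTG, an element bound by basic helix-loop-helix factors, was in 1 of the 8 (Ogdh, in 3 of its 6 alternative windows) against 6.02% of all windows. The antioxidant response element TGACNNNGC was in 0 of the 8 (10.16% of all windows), as were the NRF1 motif (3.74%), the ETS motif CCGGAAG (6.91%) and the ERR motif AAGGTCA (4.08%), all searched on both strands. The 8 genes were counted by gene and the background by window, so the 2 shares are not in the same unit. A match or its absence describes these letters in this window only.

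The rest of the cycle gave 1 call. Of 8 other subunits analysed, Idh3g was the higher one and no call was made for 7, at a median log2 fold change of -0.03. Dlst, and Dld, the E3 component shared with pyruvate dehydrogenase, had log2 fold changes of 0.01 ± 0.08 SE (limma, adjusted p = 0.975) and -0.10 ± 0.07 SE (adjusted p = 0.449). Dlst changed sign under several settings, to -0.01 under median centring. The succinate dehydrogenase subunits, which make up complex II of the respiratory chain, ranged from -0.10 for Sdhd to 0.07 for Sdha, with Sdhb at 0.06 and Sdhc at -0.06, and 0 of 4 passed the test in limma (0 of 4 at an unadjusted p of 0.05 and 0 of 4 by the methods' t-test).

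**Figure D3:**
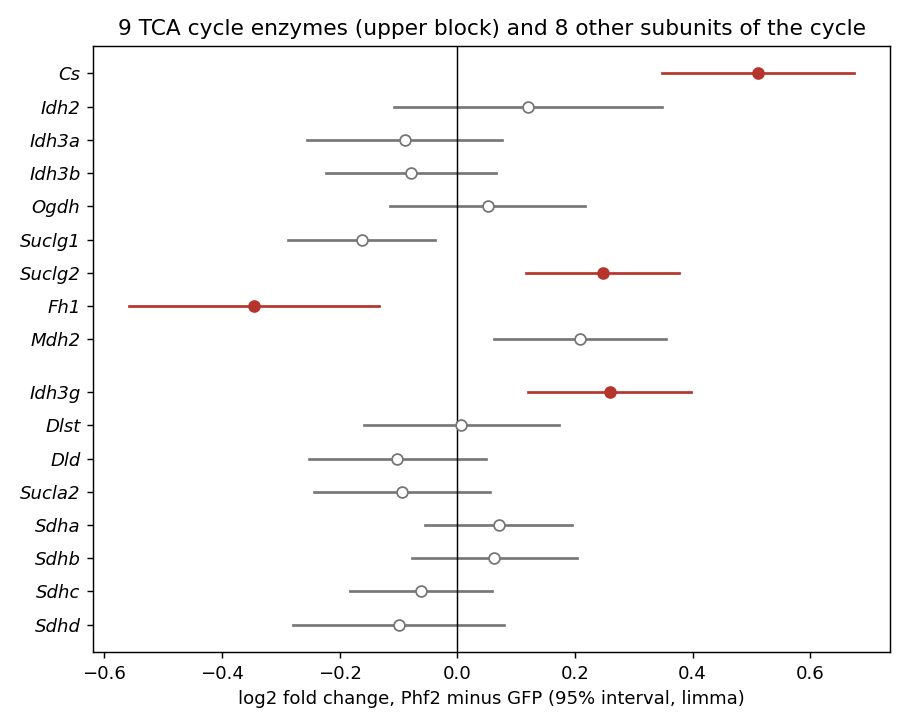
Horizontal axis, log2 fold change of Phf2 over GFP mice for the 9 TCA cycle genes and 8 other subunits of the cycle, with 95% intervals from limma. Genes past the adjusted threshold are filled in red and the others are open, and the 4 calls run from -0.35 (Fh1) to 0.51 (Cs).

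The citrate carrier Slc25a1, the citrate-cleaving enzyme Acly and the malic enzyme Me1 were higher in Phf2 mice, and the aconitase Aco1 was lower. Of 6 genes of cytosolic counterparts and citrate use, 3 were higher and 1 was lower. Slc25a1, the mitochondrial citrate carrier, read 9.84 to 10.14 in Phf2 mice against 9.42 to 9.73 in GFP mice, a log2 fold change of 0.44 ± 0.08 SE (limma, adjusted p = 0.00473). Acly, which cleaves cytosolic citrate to acetyl-CoA, had a log2 fold change of 1.22 ± 0.16 SE (adjusted p = 0.000445), and Me1, the NADP-dependent malic enzyme of the cytosol, one of 1.13 ± 0.10 SE (adjusted p = 3.70e-05). Aco1, the cytosolic aconitase, fell by 0.24 ± 0.06 SE (adjusted p = 0.0308), with 9.25 to 9.34 in Phf2 mice against 9.42 to 9.70 in GFP mice. Idh1 had a value of 0.02 ± 0.06 SE (adjusted p = 0.922). The call of Aco1 was lost without Phf2 replicate 1, 2, 3 or 4 or GFP replicate 1, 2 or 4 (adjusted p = 0.0277 to 0.0782 over the 10 fits without a single array). It was also lost with all features tested, with the replicate block and without the array of each group highest in pancreatic markers (adjusted p up to 0.121).

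Among genes of reactions that feed or drain the cycle, calls went in both directions. Of 13 genes analysed (Gls2 was not analysed here), 4 were lower, 1 was higher and 8 were not called, at a median log2 fold change of -0.14. Glud1, which makes 2-oxoglutarate from glutamate, fell by 0.42 ± 0.06 SE (limma, adjusted p = 0.000655), with 10.32 to 10.51 in Phf2 mice against 10.77 to 10.92 in GFP mice. Pccb, a subunit of propionyl-CoA carboxylase on the route to succinyl-CoA, fell by 0.53 ± 0.07 SE (adjusted p = 0.000613). Dhtkd1, the 2-oxoadipate dehydrogenase of lysine breakdown and a relative of Ogdh, fell by 0.57 ± 0.13 SE (adjusted p = 0.0167), and Pck1, which turns oxaloacetate to phosphoenolpyruvate, by 1.24 ± 0.20 SE (adjusted p = 0.00168). The higher gene was Pcx, pyruvate carboxylase, named after its value was seen, with a log2 fold change of 0.32 ± 0.09 SE (adjusted p = 0.0384). Its adjusted p was 0.0668 under median centring, ran from 0.0243 to 0.103 when single arrays were left out, and passed 0.05 upwards without Phf2 replicate 2, 3, 4 or 5 or GFP replicate 1, 3 or 4. The call of Pcx was also lost by the methods' t-test, with all features tested, with the replicate block and without the array of each group highest in pancreatic markers (adjusted p up to 0.115). The call of Dhtkd1 was lost by the methods' t-test and without the array of each group highest in pancreatic markers (adjusted p up to 0.0937).

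Of 7 mitochondrial carriers analysed (Mpc2 was not analysed here), 1 was higher and 1 was lower. Slc25a11, the 2-oxoglutarate and malate carrier, had a log2 fold change of 0.44 ± 0.09 SE (limma, adjusted p = 0.00682), with values of 8.30 to 8.61 in Phf2 mice and 7.90 to 8.31 in GFP mice that overlapped at their ends. Slc25a13, the liver aspartate and glutamate carrier citrin, fell by 0.80 ± 0.09 SE (adjusted p = 0.000232), with 7.71 to 8.10 in Phf2 mice and 8.55 to 8.86 in GFP mice.

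General mitochondrial genes gave no call in limma. In limma 0 of 11 regulators of mitochondrial biogenesis, 0 of 15 genes of import and folding (Phb was not analysed here) and 0 of 6 assembly factors and mitochondrial sirtuins passed the adjusted threshold, with 2, 5 and 2 at an unadjusted p under 0.05 and 1, 0 and 0 past an adjusted p of 0.05 by the methods' t-test. The gene passed by that test was Gabpa, a subunit of an ETS transcription factor, named after its value was seen (log2 fold change 0.14, adjusted p = 0.0335 by the methods' t-test and 0.129 by limma). Their median log2 fold changes were 0.05, 0.03 and -0.08. The smallest p in each list belonged to Tfb1m, a mitochondrial rRNA methyltransferase (-0.30 ± 0.10 SE on the log2 scale, adjusted p = 0.0994), Clpp, a mitochondrial protease (-0.24 ± 0.07 SE on the log2 scale, adjusted p = 0.0526), and the deacetylase Sirt3 (-0.21 ± 0.08 SE on the log2 scale, adjusted p = 0.152).

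**Figure D4:**
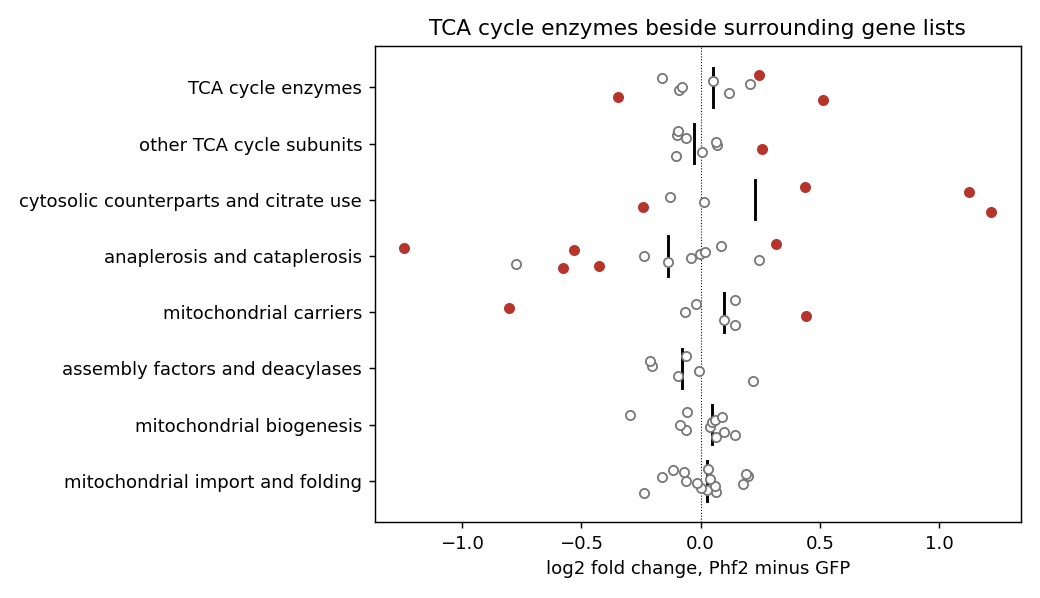
Horizontal axis, log2 fold change of Phf2 over GFP mice for each gene in the TCA cycle and 7 surrounding lists, with called genes filled in red, the others open and bars at the median of a list. The TCA cycle genes lie within -0.35 and 0.51, whereas genes of citrate use reach 1.22 (Acly) and genes that drain or feed the cycle reach -1.24 (Pck1).

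The genes most similar to a TCA cycle gene over the 10 arrays were found by the root mean square distance between profiles scaled to mean 0 and SD 1, a description that includes the difference between groups. For Cs these were Abcd2, Phlda3 and Samm50, at distances of 0.154, 0.181 and 0.181, with log2 fold changes of 1.82, 1.47 and 0.52. For Fh1 they were Atg101, Upp2 and Asl (0.190, 0.197 and 0.200), with log2 fold changes of -0.26, -1.55 and -0.80. For Suclg2 they were Igf2bp3, Zfp825 and Dhx35 (0.276, 0.281 and 0.298), and the other 6 genes had their nearest profile at distances between 0.227 and 0.303.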

How the data were processed

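Liver RNA of 5 Phf2 and 5 GFP mice was read on 1 Affymetrix Gene ST array each. The authors deposited log2 values after RMA in Bioconductor, 35556 features for 10 arrays. Their versions and the genome build are not stated in these sources. Although the methods name a human array, the feature numbers match a mouse Gene 1.0 ST annotation, from which gene names were taken (21789 features with 1 symbol, 1621 with several, 12146 with none). Features with 1 symbol were kept, with the highest mean where a gene had several, which left 19938 genes. RMA equalizes the arrays, so a change shared by most genes would not be seen.

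Phf2 minus GFP was fitted with limma 3.58.1 in R 4.3.3. The p-values were adjusted by Benjamini-Hochberg over the 19938 genes, and 0.05 was the threshold. Pairs of genes were compared by exact two-sided permutation tests of within-array differences. The number of arrays limits the precision. In simulated data with 19938 genes, 19738 were left unchanged, and 4 of these were called. Called were 22 of 50 genes changed 1.25-fold, 40 of 50 changed 1.5-fold and 48 of 50 changed 2-fold. In the measured data 1929 genes were called by limma. The adjusted threshold is stricter where fewer genes change, so these simulated counts do not give the power for this comparison. The labels do not say more about how the arrays relate than the replicate number, and p-values measure the spread between these arrays. The authors' design removed mice without overexpression.

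The 9 genes, the other lists and the tests were chosen with earlier results of these data known. Named were the 9 genes, the other subunits of the cycle, up to 4 called genes per surrounding list with the smallest p (or the gene with the smallest p where none was called), and the 3 most similar profiles. Results were recomputed with array weights, the methods' t-test, an intensity trend, averaged features per gene, removal of dim features, further normalization, the replicate block, the pancreatic markers as a covariate, testing all features, a 1.5-fold threshold and leaving out arrays. The methods name an analysis of variance per gene and no adjustment over genes. For this pair of groups it was run as a t-test, with the Benjamini-Hochberg adjustment added here. Same-numbered arrays did not deviate together. The promoters were 250 bases before each start in RefSeq (GRCm38.p6).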

Additional observations from a re-analysis of the deposited data

Results flagged for a closer look

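In 17 genes of the cycle, 34 groups of 5 arrays were searched for a single array far from the others, a search in which chance marks about 1 group in 20. A total of 4 groups had such an array. Sdhd was high in Phf2 replicate 5, at 8.77 against 8.62 for the next array of its group. Idh3b was low in Phf2 replicate 2, at 10.005 against 10.20 for the next array. Idh3a was high in GFP replicate 5, at 7.92 against 7.66 for the next array. Sdhc was high in GFP replicate 2, at 10.86 against 10.72 for the next array. None of these 4 genes was called by limma.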

How the results depend on the processing

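Of 189 alternative values for the 9 genes, 174 kept the direction and side of the threshold, as did 69 of 91 for the 7 pairs. By the methods' t-test Suclg1 passed (-0.16, adjusted p = 0.0494), Fh1 did not (-0.35, adjusted p = 0.105), and 694 genes were called higher, against 1083 by limma. With an intensity trend Mdh2 passed (0.21, adjusted p = 0.0442), and with all features tested Fh1 did not (-0.35, adjusted p = 0.0861), which left 0 of the 9 lower. Without the array of each group highest in pancreatic markers, chosen after seeing the data, Suclg2 was 0.26 (adjusted p = 0.0856) and Fh1 -0.30 (adjusted p = 0.205), with 1 of the 9 genes higher and 0 lower, and 565 genes higher and 386 lower in all. At 1.5-fold with an unadjusted p of 0.05, 0 of the 9 were higher and 0 lower, with 475 genes higher and 231 lower in all, against 1083 and 846 at the adjusted threshold. Under median centring 829 genes were higher and 959 lower, and 0 anaplerosis genes were higher and 6 lower, against 1 and 4 (6 were also lower without Phf2 replicate 5).

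The replicate numbers did not pair the arrays, since the same-number correlations of deviations ran from -0.291 to -0.0421 and no array correlated best with its own number. With the replicate block Suclg2 was 0.25 (adjusted p = 0.0688) and Fh1 -0.35 (adjusted p = 0.0511), leaving 1 of the 9 higher and 0 lower, and Idh3g was 0.26 (adjusted p = 0.0548). The pairs Suclg2 minus Sucla2 (0.34), Suclg1 minus Suclg2 (-0.41) and Mdh2 minus Mdh1 (0.34) had an adjusted p of 0.146 under the replicate block, where 5 sign flips allow no p under 0.0625.

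Dlst changed sign with array weights (-0.0167), quantile normalization (-0.00545) and median centring (-0.0125), and ran from -0.0360 to 0.0549 without single arrays (-0.0279 without Phf2 replicate 1, -0.0360 without Phf2 replicate 5, -0.0120 without GFP replicate 3). Without single arrays Fh1 ran from -0.40 to -0.29, Suclg2 minus Sucla2 from 0.31 to 0.38, Suclg1 minus Suclg2 from -0.46 to -0.38, Mdh2 minus Mdh1 from 0.28 to 0.38, Idh3a minus Idh3b from -0.0416 to 0.0518 (0.0121 without Phf2 replicate 5, 0.0518 without GFP replicate 5) and Ogdh minus Dlst from -0.00832 to 0.113 (-0.00832 without Phf2 replicate 4). Counts without single arrays ran from 0 to 1 for lower genes among the 9, higher other subunits, lower cytosolic genes, higher anaplerosis genes and lower import genes. The causes were not tested.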
